A study of Homo sapiens with 15 samples.

Results

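Genes for proteins of the mitochondrial ribosome were examined for where their messages end in knockdown cells. Members were the genes whose symbol is MRPL or MRPS followed by a number and at most 1 letter. The rule used names alone and found 68 of the 13056 genes in the table. By subunit, 42 members belong to the large subunit, MRPS30 among them despite its name, and 25 to the small subunit. MRPS36, the last member, is now known as a component of the oxoglutarate dehydrogenase complex. A bacterial counterpart is known for 40 members, and 28 have none.

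The mitochondrial ribosome translates the few messages made from mitochondrial DNA, which encode core subunits of the respiratory chain. Its RNAs come from the mitochondrial genome, while every protein subunit is encoded in the nucleus, made in the cytosol and imported. The nuclear messages are cleaved and polyadenylated like others, usually some bases downstream of an AATAAA or ATTAAA hexamer. A gene with more than 1 such site can give messages with a short or a long 3' UTR, the untranslated stretch after the stop codon.

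Distal site use was measured in 15 RNA libraries of HEK293T, a human embryonic kidney cell line. Every library carried a short hairpin RNA (sh), and cells without a hairpin were not analysed here. The control hairpin, shControl, had 3 libraries. Hairpins against 6 genes had 2 libraries each: shHDAC1 (a histone deacetylase), shPABPN1 (a nuclear protein that binds poly(A) tails), shPCBP2 (a protein that binds C-rich RNA), shSF3B4 (a component of the U2 snRNP of the spliceosome), shU2AF2 (a splicing factor of the polypyrimidine tract) and shZNF384 (a zinc finger transcription factor). The series' text presents the knockdowns as a test of regulators of alternative polyadenylation. The suffix nuc stands in the library names of shControl but in none of the knockdowns. What it means is not stated, so any effect of it on a comparison with shControl cannot be told apart from the knockdown. The labels name nuclear as well as total RNA isolation. They do not say whether replicate libraries came from separate cultures, so the p-values measure the spread between libraries only.

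The measure was PDUI, an index of distal poly(A) site use, which estimates the fraction of a gene's messages that end at its distal site. A value of 1 means distal use alone, and values near 0 mean almost all proximal use. PDUI holds no expression level, so neither the strength of a knockdown nor markers of the cell type could be checked. The depth behind each value is unknown, because the table has fractions and no read counts. In bulk RNA a shift in some of the cells and a smaller shift in all of them cannot be told apart. Over 11353 genes that had values in all 15 libraries, mean PDUI was 0.522 in shControl replicate 1 and from 0.533 to 0.585 in the other libraries. Over the 64 of 68 members that had them, the mean was 0.338 in shControl replicate 1, 0.395 in replicate 2 and 0.388 in replicate 3, against 0.365 to 0.416 in the knockdown libraries. The part of shControl replicate 1 in each comparison with shControl was measured by leaving it out.

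The transcript given for each member was found in release 29 of GENCODE for 68 of 68 members, and 42.6% had the same version there. Coordinates and sequence windows come from that release, on GRCh38. AATAAA stood on the transcript strand in the last 50 bases of 39 members, or 57.4%, against 60.7% of all matched transcripts. ATTAAA stood there in 13, or 19.1%, against 17.9%. Some transcripts hold both hexamers. A match describes the letters and does not establish a poly(A) site, and the table does not give the position of the sites it used. The windows below run 5′ to 3′ on the transcript strand with the hexamer in capitals. They are shown for some of the genes that had a called shift. They mark the first and the last hexamer after the stop codon, or the single one in MRPL42.
MRPL35 first, chr2:86210783-86210812, plus strand: tacagtgacaacATTAAActtagaaaagtt
MRPL35 last, chr2:86213759-86213788, plus strand: ttttaaatgtgaAATAAAcagtgatacttt
MRPL42 single, chr12:93501491-93501520, plus strand: cagtagaacatcAATAAAttacatcagaaa
MRPS14 first, chr1:175014408-175014437, minus strand: aaagagtagcatAATAAAtattttctgtga
MRPS14 last, chr1:175012959-175012988, minus strand: tccaaaattcacATTAAAatctaatccaca
MRPL50 first, chr9:101390059-101390088, minus strand: tgcacatacacaAATAAActtttattagat
MRPL50 last, chr9:101387636-101387665, minus strand: taaactgcataaAATAAActcctccctcct
MRPS21 first, chr1:150308312-150308341, plus strand: accattctctgcAATAAActcaaatcacat
MRPS21 last, chr1:150308946-150308975, plus strand: gtgttttactacAATAAAaacttttttgaa
MRPS33 first, chr7:141006168-141006197, minus strand: attctctaatgaAATAAAtacctaagttat
MRPS33 last, chr7:141002614-141002643, minus strand: tttccaagaaagAATAAAtcaaaatttgaa
In MRPL35 the first hexamer lies 126 bases after the stop codon, and the last lies 24 bases before the transcript's end in a 3' UTR of 3126 bases. In MRPS33 the corresponding distances are 244 and 22 bases, in a 3' UTR of 3820 bases. MRPS21 has a 3' UTR of 751 bases with its hexamers 95 bases after the stop codon and 22 bases before the end. The only hexamer of MRPL42 lies 74 bases before the end of its 355-base 3' UTR.

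Mitochondrial ribosomal protein messages used their distal sites less than most genes did. The median of the members' mean PDUI over libraries was 0.3997, against 0.593 over all genes. Means of 0.5 or more were found for 25 members, or 36.8%, against 59.8% of all genes. Means under 0.1 were found for 10 members, or 14.7%, against 7.59%. These shares describe the groups of genes and were not tested. Annotated ends were also shorter, with a median last exon of 645.5 bases in members and 1372 in all matched transcripts. Among the 58 members with an annotated 3' UTR, its median length was 424.5 bases, against 1311. The last exon overlapped another annotated gene in 19 members, or 27.9%, against 25.6%, and counts from such a neighbour could enter the value.

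At the low end stood MRPL22, a large-subunit protein with a bacterial counterpart. It read 0.01 in 14 libraries and 0.001, the lowest entry of the table, in shControl replicate 1. The next lowest members were MRPS23, with a mean PDUI of 0.0287, MRPS33, with 0.0307, and MRPS5, with 0.032. These 4 messages ended almost wholly at the proximal site in every group. At the high end stood MRPL49, with a mean PDUI of 0.986, and MRPS30, with 0.979. MRPS18C followed with 0.914 and MRPL43 with 0.908. The given transcripts of MRPL49, MRPS30 and MRPS18C are annotated as processed transcripts without a coding sequence, and the last exons of MRPL49, MRPS18C and MRPL43 overlap SYVN1, ABRAXAS1 and SEMA4G.

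With all libraries in the fit, every member called against shControl used the distal site more in the knockdown. A gene was called when limma's moderated test gave a Benjamini-Hochberg adjusted p under 0.05 over all genes tested. No member was called in shHDAC1, where 0.0243% of all genes were called. An unadjusted p under 0.05 was found there for 2 of 68 members, against 740 of 12371 genes. In shPABPN1, 5 of 66 tested members were called higher and none lower, against 4.72% of all genes tested called in either direction and 3.99% of all genes tested called higher. In shPCBP2, 4 of 67 were called higher, with 1.17% of all genes called and 1.05% called higher.

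Counts in the remaining knockdowns were as follows. In shSF3B4, 7 of 67 members were called higher, against 5.42% of all genes called, 4.26% higher and 1.16% lower. In shU2AF2, 9 of 67 were called higher, against 7.27% called and 5.88% called higher. In shZNF384, 2 of 68 were called higher, against 1.5% called, 1.44% higher and 0.0638% lower. As percentages of members tested, these were 7.58 in shPABPN1, 5.97 in shPCBP2, 10.4 in shSF3B4, 13.4 in shU2AF2 and 2.94 in shZNF384. These shares describe a few genes each and were not tested against those of all genes. Shares of all genes were not taken for the fits that leave out a library, so their counts describe the members alone. Without shControl replicate 1, 10 members were called in shPABPN1, 6 higher and 4 lower, and the 5 were among them. Without that library 2 were called in shPCBP2 and 1 in shZNF384, and in shSF3B4 there were 6, of which 1 was lower. Leaving out either library of shZNF384, or shControl replicate 3, left 0 calls there. Leaving out shPCBP2 replicate 1 left 0 in shPCBP2 and replicate 2 left 1, while without shControl replicate 2 or 3 there were 2. Without its replicate 1, shSF3B4 had 4 calls, 3 higher and 1 lower, and shU2AF2 without its replicate 1 had 5.

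Most members did not stand apart from the controls. The median difference in PDUI over members was -0.01 in shPABPN1, against -0.0093 over all genes. It was 0.025 in shPCBP2, 0.0233 in shSF3B4 and 0.0267 in shU2AF2, against 0.015, 0.0117 and 0.0117 over all genes. In shZNF384 it was 0.0208 against 0.0233, and in shHDAC1 it was 0.0033 in both. Both knockdown libraries lay above every control library for 6 members in shHDAC1, 15 in shPABPN1, 20 in shPCBP2, 22 in shSF3B4, 21 in shU2AF2 and 15 in shZNF384. Of all genes, 8.18%, 12.7%, 16.4%, 17.1%, 19.2% and 20.8% did so in the same order. Both lay below for 4, 6, 3, 3, 2 and 0 members in that order, against 7.07%, 13.3%, 5.27%, 8.3%, 9.83% and 3.65% of all genes.

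**Figure D1:**
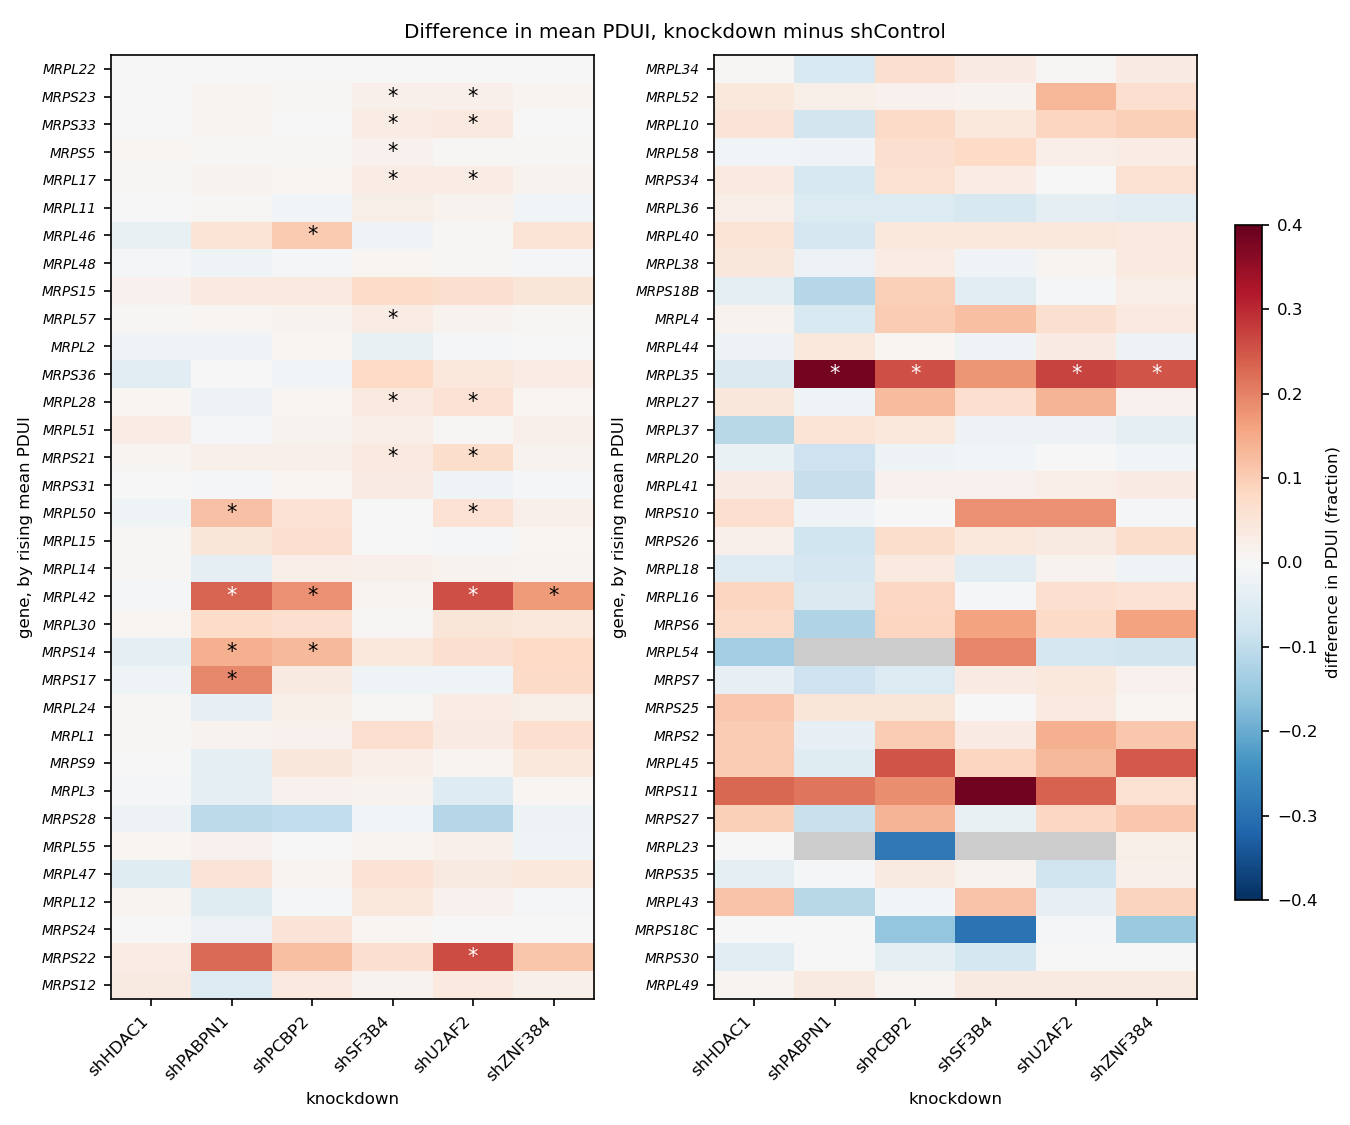
Difference in mean PDUI, knockdown minus shControl, for the 68 members in order of rising mean PDUI. Red is higher and blue lower than shControl, grey has too few values for a test, and an asterisk marks an adjusted p under 0.05. All asterisks lie on positive differences, and shHDAC1 has none.

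Taking all comparisons with shControl, their mean and the test among knockdowns, 14 of 68 members (20.6%) were called at least once and 54 were not, against 14.5% of all genes called at least once. Of the 14, 7 encode large-subunit proteins (of 42) and 7 small-subunit proteins (of 25), and 7 have a bacterial counterpart (of 40). In single knockdowns, MRPL35 and MRPL42 were called in 4 each, 7 members in 2 and 5 members in 1. The called members had a median last exon of 1757.5 bases and a median mean PDUI of 0.132, against 572.5 bases and 0.485 for the others. Both values are shown for each member in the plot of PDUI against exon length. Several called members had short last exons, with 305 bases in MRPS22, 375 in MRPS5, 399 in MRPL28 and 401 in MRPL42. MRPL35 had a mean PDUI of 0.554. Within a group, values of MRPS33, MRPS23, MRPS5, MRPL17 and MRPL57 varied by at most 2 of the 0.01 steps to which the table is rounded.

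**Figure D2:**
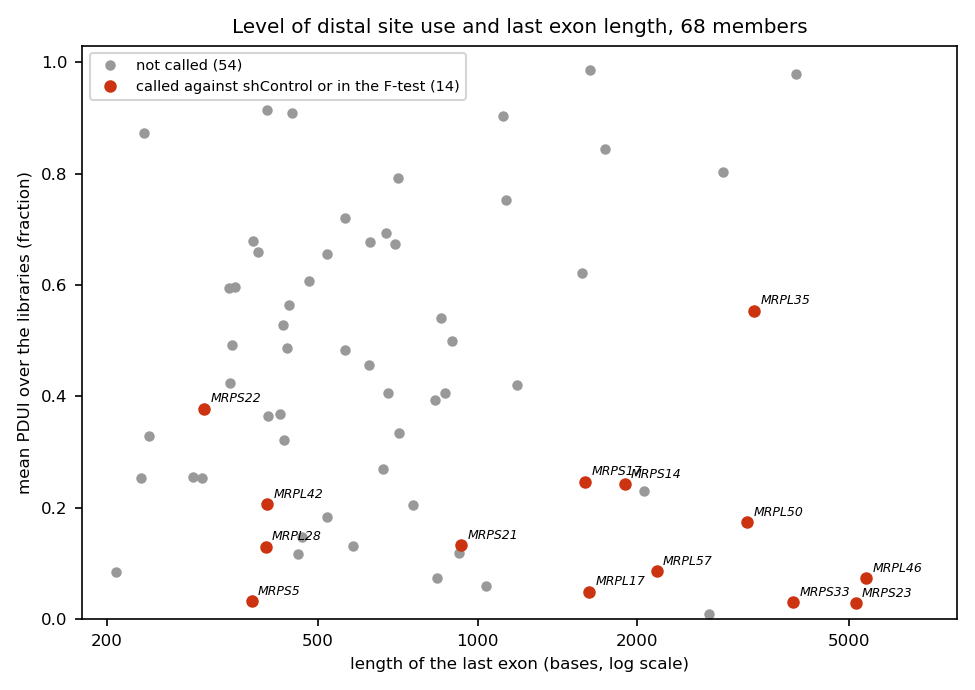
Mean PDUI over the libraries (fraction) against the length of the last exon (bases, log scale) for the 68 members. Red points are the 14 members called against shControl or among the knockdowns, and grey points the other 54. MRPL35 at 0.554 is the only red point above 0.4.

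Among large-subunit proteins, MRPL35 shifted most. MRPL35 has a bacterial counterpart. Its PDUI was 0.37, 0.41 and 0.37 in shControl and 0.32 and 0.33 in shHDAC1. It was 0.78 and 0.75 in shPABPN1, 0.68 and 0.6 in shPCBP2, and 0.6 and 0.52 in shSF3B4. It was 0.71 and 0.6 in shU2AF2, and 0.68 and 0.59 in shZNF384. The 10 libraries of shPABPN1, shPCBP2, shSF3B4, shU2AF2 and shZNF384 thus lay above all controls, and the shHDAC1 libraries below them.

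MRPL35 rose by 0.382 ± 0.0449 (SE) in shPABPN1, from 0.383 ± 0.0231 (SD, n = 3) to 0.765 ± 0.0212 (n = 2), with an adjusted p of 0.00154 in limma. In shU2AF2 it rose by 0.272 (adjusted p 0.00593), in shPCBP2 by 0.257 (0.0358) and in shZNF384 by 0.252 (0.036). In shSF3B4 the difference of 0.177 gave an adjusted p of 0.0582, although both of its libraries lay above the controls. How far these calls rest on single libraries differed between the knockdowns. The MRPL35 calls in shPCBP2 and shZNF384 were lost without any 1 of their 5 libraries, at adjusted p from 0.0634 to 0.191 in shPCBP2 and from 0.0573 to 0.178 in shZNF384. The call in shU2AF2 was lost without shU2AF2 replicate 1 (0.0542), while that in shPABPN1 held without each library. Against the mean of the other 5 knockdowns, MRPL35 was lower by 0.326 ± 0.0381 in shHDAC1 (adjusted p 0.00222) and higher by 0.202 ± 0.0381 in shPABPN1 (0.0146).

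MRPL42, a large-subunit protein without a bacterial counterpart, separated the knockdowns most clearly. Its PDUI was 0.09, 0.1 and 0.09 in shControl, 0.08 and 0.09 in shHDAC1, and 0.1 and 0.11 in shSF3B4. It was 0.37 and 0.28 in shPABPN1, 0.3 and 0.25 in shPCBP2, 0.34 and 0.36 in shU2AF2, and 0.26 and 0.27 in shZNF384. The 4 latter groups lay well above the controls, and the shHDAC1 and shSF3B4 libraries overlapped them. MRPL42 rose by 0.257 ± 0.0233 in shU2AF2 (adjusted p 0.000205), by 0.232 in shPABPN1 (0.000696), by 0.182 in shPCBP2 (0.0102) and by 0.172 in shZNF384 (0.0171). For shSF3B4 the difference was 0.0117 ± 0.0233 (adjusted p 0.913).

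The contrast between knockdowns was itself tested for MRPL42. It was lower by 0.155 ± 0.0198 in shSF3B4 than in the mean of the other 5 (adjusted p 0.00153), lower by 0.179 in shHDAC1 (0.00177), higher by 0.139 in shU2AF2 (0.0031) and higher by 0.109 in shPABPN1 (0.012). The libraries of shSF3B4 and shU2AF2, which target factors that act together at 3' splice sites, thus lay on opposite sides of the mean of the others for this message, although shHDAC1 read lower than shSF3B4 and 1 shPABPN1 library higher than both of shU2AF2. The call against shControl in shU2AF2 held under all 11 alternative settings, at adjusted p from 0.000133 to 0.0127. The call in shPCBP2 was lost after centring each library on its median (adjusted p 0.181). It was lost with the replicate number as a block (0.132) and in a fit of only the 2 groups (0.132). It was also lost without shPCBP2 replicate 1, at a difference of 0.157. The call in shZNF384 was lost by centring (0.304), with the replicate block (0.123) and without shControl replicate 3 (0.0577). It was also lost without shZNF384 replicate 1 or replicate 2, at differences of 0.177 and 0.167. The call in shPABPN1 was lost only in the fit of the 2 groups (0.0925).

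MRPL50, another large-subunit protein without a bacterial counterpart, moved less. Its PDUI was 0.13, 0.16 and 0.14 in shControl, 0.24 and 0.28 in shPABPN1, 0.19 and 0.21 in shPCBP2, and 0.2 in both shU2AF2 libraries. The other groups read from 0.12 to 0.17. The shPABPN1, shPCBP2 and shU2AF2 libraries all lay above the controls. MRPL50 rose by 0.117 ± 0.0127 in shPABPN1 (adjusted p 0.00105) and by 0.0567 ± 0.0127 in shU2AF2 (0.0277). The same difference of 0.0567 in shPCBP2 gave an adjusted p of 0.0939. The call in shU2AF2 was lost without shControl replicate 1 (0.0761), shControl replicate 3 (0.0786), shU2AF2 replicate 1 (0.127) or shU2AF2 replicate 2 (0.135).

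MRPL46, also of the large subunit, was called in shPCBP2 alone among the comparisons with shControl. It read 0.04, 0.06 and 0.05 in shControl, 0.14 and 0.17 in shPCBP2, 0.14 and 0.07 in shPABPN1, 0.11 and 0.1 in shZNF384, and 0.02 in both shHDAC1 libraries. The shSF3B4 and shU2AF2 libraries ran from 0.03 to 0.06. The shPCBP2, shPABPN1 and shZNF384 libraries lay above all controls. MRPL46 rose by 0.105 ± 0.0175 in shPCBP2 (adjusted p 0.0286), and it was higher there than in the mean of the other 5 knockdowns by 0.091 ± 0.0148 (0.0239). The call against shControl was lost without any 1 of the 5 libraries, at adjusted p from 0.0527 to 0.178. The given transcript of MRPL46 is annotated as a retained intron, and its last exon of 5400 bases overlaps AC013489.1 on the same strand.

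Small-subunit proteins with larger shifts were MRPS14, MRPS17 and MRPS22. MRPS14 has a bacterial counterpart in the head of the small subunit. It read 0.18, 0.19 and 0.19 in shControl and 0.15 in both shHDAC1 libraries. It read 0.3 and 0.36 in shPABPN1, 0.31 and 0.32 in shPCBP2, 0.21 and 0.25 in shSF3B4, 0.26 and 0.24 in shU2AF2, and 0.26 and 0.27 in shZNF384. All knockdown libraries except those of shHDAC1 lay above the controls, and shHDAC1 lay below. MRPS14 rose by 0.143 ± 0.0172 in shPABPN1 (adjusted p 0.00169) and by 0.128 ± 0.0172 in shPCBP2 (0.0119). The call in shPCBP2 was lost without shPCBP2 replicate 1 (0.0683) or replicate 2 (0.0833).

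MRPS17, whose bacterial counterpart binds the ribosomal RNA early in assembly, was called in shPABPN1. It read 0.24, 0.2 and 0.2 in shControl, 0.32 and 0.49 in shPABPN1, 0.29 in both shZNF384 libraries and 0.16 to 0.27 in the other knockdowns. The shPABPN1 libraries lay above all controls but far from each other. MRPS17 rose by 0.192 ± 0.0419 (adjusted p 0.0346). The call was lost without shControl replicate 2 (0.0953), shControl replicate 3 (0.104) or shPABPN1 replicate 2 (0.0856). Its last exon overlaps AC092647.5 on the same strand.

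MRPS22, a small-subunit protein without a bacterial counterpart that is mutated in a mitochondrial disease, was called in shU2AF2. It read 0.27, 0.23 and 0.31 in shControl, 0.55 and 0.51 in shU2AF2, and 0.38 and 0.61 in shPABPN1. Values ran from 0.28 to 0.45 in the other knockdowns. MRPS22 rose by 0.26 ± 0.0642 in shU2AF2 (adjusted p 0.0424), and the difference of 0.225 in shPABPN1 gave 0.0953. The call was lost without any 1 of the 5 libraries, at adjusted p from 0.0699 to 0.202. The given transcript is annotated as a target of nonsense-mediated decay.

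**Figure D3:**
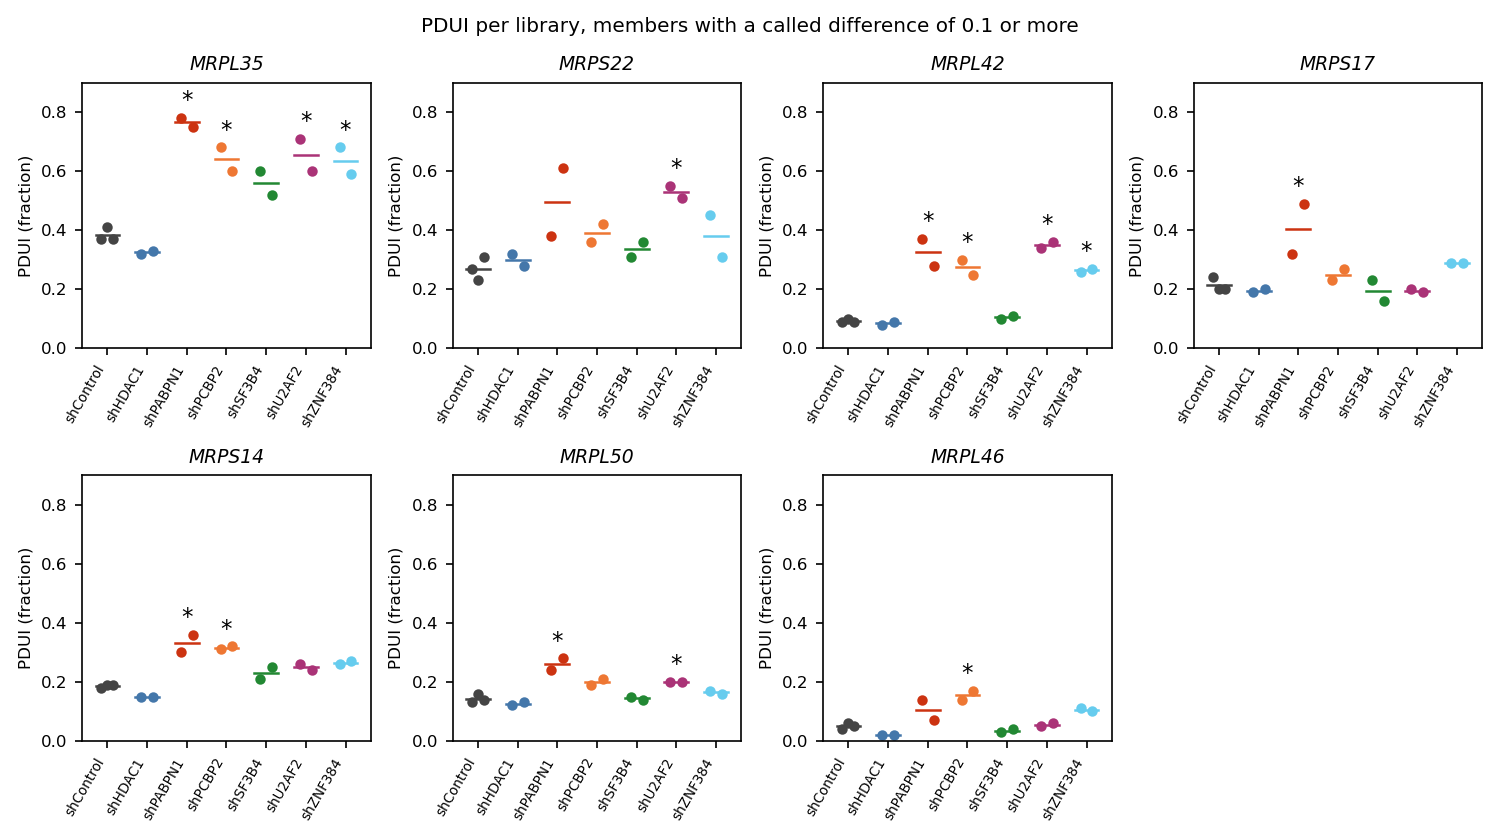
PDUI (fraction) in each library by hairpin for the 7 members with a called difference of 0.1 or more. Points are libraries, lines are group means and asterisks mark an adjusted p under 0.05 against shControl. In MRPL42 the shSF3B4 libraries stayed at 0.1 and 0.11 while both shU2AF2 libraries reached 0.34 or more.

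Smaller differences, all under 0.1, were called in shSF3B4 and shU2AF2. The clearest was MRPS21, which has a bacterial counterpart. It read 0.12, 0.1 and 0.11 in shControl, 0.15 in both shSF3B4 libraries and 0.18 in both shU2AF2 libraries. The other knockdowns ran from 0.12 to 0.13. MRPS21 rose by 0.04 ± 0.0057 in shSF3B4 (adjusted p 0.00358) and by 0.07 ± 0.0057 in shU2AF2 (0.000118), and both calls held without each library. Centring ended both, at differences of 0.0117 in shSF3B4 (0.874) and 0.0467 in shU2AF2 (0.394). The call in shSF3B4 was also lost in a fit of only the 2 groups (0.122).

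MRPL28, a large-subunit protein with a bacterial counterpart, showed the same order. It read 0.11, 0.12 and 0.12 in shControl, 0.16 and 0.15 in shSF3B4, 0.18 and 0.17 in shU2AF2, and 0.1 and 0.09 in shPABPN1, while the other knockdowns ran from 0.12 to 0.13. The shPABPN1 libraries lay below the controls, with a difference of -0.0217 and an adjusted p of 0.113. MRPL28 rose by 0.0383 ± 0.0066 in shSF3B4 (adjusted p 0.00943) and by 0.0583 ± 0.0066 in shU2AF2 (0.000665). The call in shSF3B4 was lost without the library named SF3B4 replicate 1 in the table (0.0784).

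MRPS33, a small-subunit protein without a bacterial counterpart, read 0.02 in all 3 shControl libraries. It read 0.05 in both shSF3B4 libraries, 0.07 and 0.05 in shU2AF2, 0.03 in both shPABPN1 libraries and 0.02 in the others. MRPS33 rose by 0.03 ± 0.0048 in shSF3B4 (adjusted p 0.00644) and by 0.04 ± 0.0048 in shU2AF2 (0.000952), and both calls held without each library. By centring MRPS33 lost both, at differences of 0.0017 in shSF3B4 (0.981) and 0.0167 in shU2AF2 (0.725). At this rounding 6 of its 7 groups showed no spread, and only the shU2AF2 libraries differed from each other.

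The remaining 4 members read under 0.12 in every library. MRPL17, whose bacterial counterpart lies at the exit of the peptide tunnel, read 0.03, 0.04 and 0.04 in shControl and 0.07 and 0.06 in both shSF3B4 and shU2AF2. It rose by 0.0283 ± 0.005 in each (adjusted p 0.0113 and 0.00862), and these calls were lost without replicate 1 of shSF3B4 (0.0928) or of shU2AF2 (0.0756). MRPS23, a small-subunit protein without a bacterial counterpart, read 0.02 in all 3 shControl libraries and 0.04 in all 4 of shSF3B4 and shU2AF2. It was called higher by 0.02 ± 0.003 in each (adjusted p 0.00472 and 0.00361), but after each library was centred on its median the differences were -0.0083 and -0.0033.

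MRPL57, without a bacterial counterpart, read 0.08, 0.07 and 0.08 in shControl and 0.1 and 0.11 in shSF3B4. It was called higher by 0.0283 ± 0.0064 (adjusted p 0.0357). MRPS5, whose bacterial counterpart takes part in decoding, read 0.02, 0.03 and 0.03 in shControl and 0.05 and 0.04 in shSF3B4. It was called higher by 0.0183 ± 0.0045 (adjusted p 0.0488), and by centring this became -0.01. Both calls were lost without any 1 of the 5 libraries, at adjusted p from 0.0616 to 0.215 for MRPL57 and from 0.0547 to 0.31 for MRPS5.

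**Figure D4:**
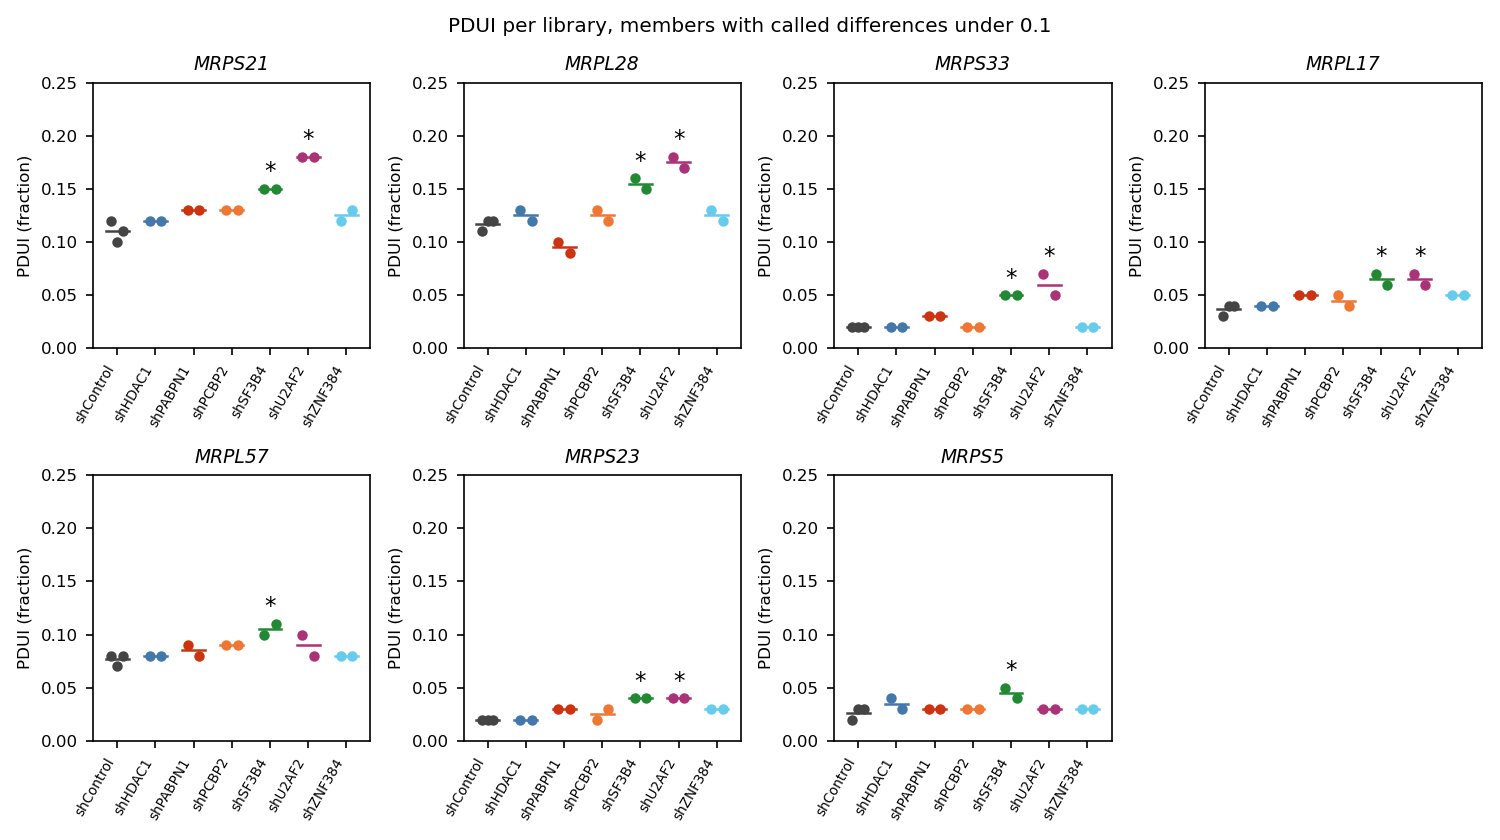
PDUI (fraction) in each library by hairpin for the 7 members with called differences under 0.1. Points are libraries, lines are group means and asterisks mark an adjusted p under 0.05 against shControl. The asterisks lie in shSF3B4 and shU2AF2, and MRPL28 was lowest in shPABPN1 at 0.1 and 0.09.

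Centring each library on its median over the complete genes kept the 5 calls in shPABPN1 and 2 calls in shU2AF2, those of MRPL35 and MRPL42. No call remained in shPCBP2, shSF3B4 or shZNF384. Centring takes 1 amount off every gene of a library, and library medians ran from 0.51 in shControl replicate 1 to 0.61 in shZNF384 replicate 2. For members near 0, such as MRPS23, MRPS5 and MRPL17, that amount can be as large as the called difference. Centring therefore cannot decide whether these members shifted. Under this setting the median difference over members was -0.0083 in shPCBP2 and -0.0275 in shZNF384. A fit of only the 2 groups compared left 0 calls in shPABPN1 and shPCBP2, 1 in shSF3B4, 4 in shU2AF2 and 1 in shZNF384. Shares of all genes were not taken under either setting.

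With the mean of the 6 knockdowns set against shControl, 6 of 66 members were called higher, against 3.4% of all genes called and 3.11% called higher. These were MRPL35 (difference 0.213), MRPL42 (0.141), MRPS14 (0.07), MRPS21 (0.0292), MRPL17 (0.0158) and MRPS23 (0.0108). After centring none was called, and MRPL17 and MRPS23 became negative at -0.0058 and -0.0108. Without shControl replicate 1, 2 were called, and MRPL35 (adjusted p 0.0539), MRPS14 (0.0849), MRPS23 (0.097) and MRPL17 (0.191) were lost. Without replicate 3, 2 were called, with MRPL35 (0.0635), MRPS14 (0.0743), MRPL17 (0.113) and MRPS23 (0.114) lost. Without replicate 2, 3 were called, with MRPS14 (0.0632), MRPS23 (0.0954) and MRPL17 (0.0956) lost.

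A moderated F-test among the 6 knockdowns uses no control library for its differences. It called 10 of 66 members, or 15.2%, against 12.9% of all genes. The smallest adjusted p belonged to MRPL42 (0.000507), followed by MRPL28 (0.00105), MRPS21 (0.00163), MRPL50 (0.00202), MRPS14 (0.00209), MRPS33 (0.00247) and MRPL35 (0.00437). Without shControl replicate 1, which then serves only the estimate of the spread, 16 were called, and the 10 were among them. After centring it called 6, of which 5 were among the 10. Shares of all genes were not taken under these settings.

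Each knockdown was also set against the mean of the other 5. In shHDAC1, 7 of 66 members were called lower and none higher, against 5.84% of all genes called and 5.29% called lower. Besides MRPL35 and MRPL42, MRPS14 was lower by 0.128, MRPL46 by 0.071, MRPL50 by 0.069, MRPS21 by 0.023 and MRPS23 by 0.013. After centring, 3 of the 7 calls remained. They were MRPL35, MRPL42 and MRPS14.

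In shPABPN1, 5 members were called higher and 9 lower than in the other knockdowns, 14 of 66 in all, against 11.2% of all genes called, 4.19% higher and 7.05% lower. MRPS6, a small-subunit protein with a bacterial counterpart, stood lowest. It read 0.49 and 0.51 in shPABPN1, from 0.68 to 0.81 in the other knockdowns, and 0.51, 0.67 and 0.68 in shControl. MRPS6 was lower by 0.231 ± 0.0439 than in the other 5 (adjusted p 0.015), a call that held in all 4 alternatives. Against shControl its difference of -0.12 gave an adjusted p of 0.267, with shControl replicate 1 beside the shPABPN1 libraries.

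The other members lower in shPABPN1 than in the mean of the other 5 were MRPS2 (-0.13), MRPL4 (-0.128), MRPL41 (-0.118), MRPS34 (-0.103), MRPS12 (-0.085), MRPL14 (-0.05), MRPL28 (-0.046) and MRPL51 (-0.024). After centring none of these was called, MRPS2 was also lost on an arcsine scale (0.0567), and MRPL14, MRPL28 and MRPL51 became positive at 0.002, 0.006 and 0.028. The members higher in shPABPN1 were MRPL35, MRPL42, MRPS14, MRPL50 and MRPS17, and these calls held in all 4 alternatives.

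Fewer members set the remaining knockdowns apart. In shU2AF2, 5 were called higher, against 6.49% of all genes called, 4.46% higher and 2.03% lower. They were MRPL42, MRPL28 (0.05), MRPS21 (0.049), MRPS33 (0.032) and MRPS23 (0.011). In shSF3B4, MRPL28 (0.026), MRPS33 (0.02) and MRPS23 (0.011) were called higher and MRPL42 and MRPL50 (-0.045) lower, against 6.99% of all genes called, 3.59% higher and 3.39% lower. After centring the single call left was that of MRPL42, in shSF3B4 and in shU2AF2. In shPCBP2, 1 member was called, MRPL46, higher, against 1.39% of all genes called and 0.724% called higher, and after centring 0. In shZNF384, 0 were called against 0.646%. An unadjusted p under 0.05 was found there for 4 of 66 members, against 1419 of 11463 genes.

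Some members varied widely without a call. MRPS11, a small-subunit protein with a bacterial counterpart, read 0.59 and 0.64 in shControl with 1 value missing, and reached 1 in 5 knockdown libraries. Libraries of 1 group could lie far apart, with 0.69 and 1 in shHDAC1, 0.66 and 1 in shPABPN1, and 0.6 and 1 in shPCBP2. Its difference of 0.385 ± 0.171 in shSF3B4 gave an adjusted p of 0.327. MRPL45, which docks the ribosome to the inner membrane, read 0.52, 0.77 and 0.78 in shControl and 0.88 and 1 in shPCBP2, with a difference of 0.25 ± 0.0919 (adjusted p 0.32).

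MRPL23, a protein of the tunnel exit, read 1, 1 and 0.75 in shControl and 0.61 and 0.65 in shPCBP2, a difference of -0.287 ± 0.0928 (adjusted p 0.304). It had no value in shSF3B4 and shU2AF2 and 1 value in shPABPN1, where it was not tested. MRPL54, without a bacterial counterpart, read 0.89, 0.46 and 0.73 in shControl and 1 and 0.78 in shSF3B4, and it had no value in shPABPN1 and shPCBP2. In these 4 members the spread between libraries of a group was as large as several of the called differences above.

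Other genes of mitochondrial translation and ribosome assembly gave a wider setting: translation factors, aminoacyl-tRNA synthetases, assembly factors and ribosomal proteins with other names. Of the 74 names listed, 60 were in the table and all 60 were tested. The number called higher and lower was 6 and 0 in shPABPN1, 1 and 0 in shPCBP2, 6 and 2 in shSF3B4, 8 and 1 in shU2AF2, 3 and 0 in shZNF384 and 0 and 0 in shHDAC1. Of all genes, 4.72%, 1.17%, 5.42%, 7.27%, 1.5% and 0.0243% were called in the same order. The F-test among knockdowns called 12 of the 60, against 12.9% of all genes. Median differences over the 60 were -0.0008 in shPABPN1, 0.0217 in shPCBP2, 0.0175 in shSF3B4 and 0.0167 in both shU2AF2 and shZNF384.

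DAP3 and PTCD3, ribosomal proteins of the small subunit that lack an MRP name, also shifted in shU2AF2. CHCHD1, on the same list, was called only in the F-test among knockdowns (adjusted p 0.041). DAP3, a GTP-binding protein, read 0.16, 0.17 and 0.18 in shControl and 0.31 and 0.3 in shU2AF2, and it rose by 0.135 ± 0.01 (adjusted p 7.19e-05). PTCD3, an RNA-binding pentatricopeptide repeat protein, read 0.14, 0.14 and 0.11 in shControl, 0.24 and 0.27 in shU2AF2 and 0.17 and 0.21 in shSF3B4. It rose by 0.125 ± 0.0141 in shU2AF2 (adjusted p 0.000682) and by 0.06 in shSF3B4 (0.0428). The call in shU2AF2 was lost by centring (0.0733) and in the fit of only the 2 groups (0.0506). The call in shSF3B4 was lost by centring (0.66), in the 2-group fit (0.263) and without any 1 control library (0.0662 to 0.109). It was also lost without shSF3B4 replicate 2, at a difference of 0.04. In both genes all shU2AF2 libraries lay above all controls.

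Outside the ribosome itself, the largest called differences lay in shPABPN1, shU2AF2 and shSF3B4. Smaller ones were called in shPCBP2 (NGRN, 0.025) and shZNF384 (NGRN, 0.035, and RBFA, 0.0633). GUF1, a translation factor related to bacterial LepA, read 0.65, 0.63 and 0.73 in shControl, 0.91 and 0.92 in shU2AF2, and 0.93 and 0.94 in shPABPN1, in the last a rise of 0.265 ± 0.0599 (adjusted p 0.0393). This call was lost without any 1 of the 5 libraries, at adjusted p from 0.0582 to 0.168. In shU2AF2 GUF1 rose by 0.245 ± 0.0599 (0.0407), a call lost without shControl replicate 1 (0.0975), shControl replicate 2 (0.101), shU2AF2 replicate 1 (0.154) or shU2AF2 replicate 2 (0.191), and by centring (0.106). NSUN4, a methyltransferase of the ribosomal RNA, rose by 0.162 ± 0.0385 in shPABPN1 (0.0489). The NSUN4 call was lost by centring (0.0997) and without shControl replicate 2 (0.133) or shControl replicate 3 (0.146). It was also lost without shPABPN1 replicate 1 or replicate 2, at differences of 0.197 and 0.127. QRSL1, a subunit of the enzyme that makes mitochondrial glutaminyl-tRNA, read 0.17, 0.14 and 0.13 in shControl and 0.27 and 0.28 in shSF3B4, a rise of 0.128 ± 0.016 (0.00181) that was lost by centring (0.12).

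MTRF1L, a release factor that ends translation at stop codons, moved the other way in shSF3B4. It read 0.89, 0.81 and 0.95 in shControl, 0.67 and 0.71 in shSF3B4, and 1 in all shPABPN1 and shPCBP2 libraries. It fell by 0.193 ± 0.0365 in shSF3B4 (adjusted p 0.0157), with both libraries below all controls. The call was lost without shSF3B4 replicate 1 (0.113) or replicate 2 (0.0535) and on an arcsine scale (0.13). The other calls below shControl on this list were MRRF in shSF3B4 (-0.04) and NGRN in shU2AF2 (-0.02). No member with an MRP name was called lower against shControl with all libraries in the fit.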

How the data were processed

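Distal poly(A) site use was analysed in 15 libraries. The authors deposited 1 PDUI value per transcript and library as a fraction with 2 decimals. The build is hg38, per the submitters' processing notes, and for the aligner, site caller and annotation the tool is not given in the sources used here. No read counts were used, so depth per library is unknown and no interval is given.

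Libraries were grouped by title. Table columns of shSF3B4 were assigned to the group, since titles and library names number its replicates differently. All 13056 genes were fitted with limma 3.58.1 in R 4.3.3, untransformed, with 1 mean per group over all libraries and eBayes with a trend, which gave 8 residual and 1.06 prior degrees of freedom. Testing a gene needed values in both libraries of the knockdown and 2 or more of shControl. Contrasts were each knockdown against shControl, the mean of the 6 against shControl, each against the mean of the other 5, and an F-test among the 6. Benjamini-Hochberg adjustment ran over all genes tested, two-sided, with calls under 0.05. The scripts were tested on simulated data. Alternatives were library centring, an arcsine scale, complete genes, entries of 0.001 as missing, a fit of only the 2 groups, a replicate block and leaving out each library. Against the other 5 knockdowns, only the first 4 of these were run.

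Named members were all that were called against shControl, in the mean or in the F-test (at most 14), the 4 uncalled with the widest range of group means, and the 4 highest and 4 lowest by mean. Named genes of the mitochondrial translation list were the 6 with the largest called difference. Members named for shPABPN1 against the other knockdowns alone were picked with their values in view. The members, lists and rules were chosen with earlier results of these data known. Transcripts were matched by identifier to GENCODE release 29.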

Additional observations from a re-analysis of the deposited data

Results flagged for a closer look

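The effects of the knockdowns on 10 members differed from each other, by the moderated F-test among the 6 knockdowns in limma. The adjusted p was 0.000507 for MRPL42, 0.00105 for MRPL28, 0.00163 for MRPS21, 0.00202 for MRPL50 and 0.00209 for MRPS14. It was 0.00247 for MRPS33, 0.00437 for MRPL35, 0.00823 for MRPL46, 0.0141 for MRPS23 and 0.0468 for MRPL17. The call of MRPL17 was lost without shControl replicate 2 (0.0662) or replicate 3 (0.0678) and on an arcsine scale (0.0538). MRPL42, MRPL35, MRPL50, MRPS14 and MRPL46 kept their calls in all 7 alternatives, and the other 5 lost theirs by centring.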

How the results depend on the processing

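Shares of all genes were not taken under the alternative settings, so the counts here describe the members alone. Centring each library on its median gave 0 called members in shPCBP2, shSF3B4, shZNF384 and the mean of the 6 knockdowns, 2 in shU2AF2 and 6 in the F-test. Against the other 5 knockdowns it gave 3 in shHDAC1, 8 in shPABPN1 (7 higher and 1 lower), 0 in shPCBP2, 1 in shSF3B4 and 1 in shU2AF2. Directions turned under centring for MRPS23 (-0.0083 in shSF3B4, -0.0033 in shU2AF2 and -0.0108 in the mean), MRPL17 (-0.0058 in the mean) and MRPS5 (-0.01 in shSF3B4). These members read near 0, where the amount taken off a whole library can be as large as the called difference. The turn therefore does not decide whether they shifted. In shPABPN1 against the other 5 the directions turned for MRPL14 (0.002), MRPL28 (0.006), MRPL51 (0.028) and DAP3 (0.01). A fit of only the 2 groups compared gave 0 calls in shPABPN1 and shPCBP2, 1 in shSF3B4, 4 in shU2AF2 and 1 in shZNF384. Leaving out 1 library at a time gave 0 calls in shHDAC1, 4 to 10 in shPABPN1, 0 to 2 in shPCBP2, 4 to 6 in shSF3B4, 5 to 8 in shU2AF2, 0 to 1 in shZNF384, 2 to 3 in the mean and 9 to 16 in the F-test. With the replicate number as a block, calls were 0 in shHDAC1, 4 in shPABPN1, 0 in shPCBP2, 7 in shU2AF2 and 0 in shZNF384. Deviations of knockdown libraries from their group means correlated at 0.001 to 0.045 with those of the same-numbered shControl library, shSF3B4 left out. Knockdown libraries were not compared with each other, so a batch shared among them was not tested. The block was not run for shSF3B4, whose columns carry no sample number, or for the mean and the F-test. Complete genes alone and entries of 0.001 as missing changed none of 101 values in direction or call, and the arcsine scale ended 3 calls. Depth limits what can be said of each value but is unknown, and values near 0 move in rounding steps of 0.01.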
